A study of Mus musculus with 7 samples.

Results

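Expression of 9 transcription factors that pattern the dorsal telencephalon, the part of the embryonic forebrain that becomes the cerebral cortex, was examined after knockdown of Trnp1. The factors were Pax6, Emx1, Emx2, Lhx2, Dmrta2, Dmrt3, Nr2f1, Nr2f2 and Sp8. They were listed by name, with earlier results of these data known, and each was read from the probe set whose only gene symbol it is. All 9 were found among the 19938 genes measured, each with 1 such probe set. Cells came from C57BL/6 mouse cortex electroporated on embryonic day 13 with constructs that also carried green fluorescent protein (GFP). GFP-positive cells were sorted 24 h later, on embryonic day 14, and their total RNA was hybridised to 1 Affymetrix array per sample. The 4 control samples carry the genotype label WT and the 3 others the label Trnp1 knockdown, and all 7 share strain, tissue, age and electroporation with GFP. The sex was not determined, and the construct, its promoter and the number of embryos per sample are not given in the sources used here. Sorting by GFP selects transfected cells, whatever their type, so each sample is a mixture.

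These factors give cells of the early cortex their dorsal identity and their position along the axes of the cortical sheet. Signals from the edges of the sheet, FGFs from the rostral patterning centre and Wnt and BMP proteins from the cortical hem, set up graded expression of the factors in ventricular progenitors. Pax6 is highest rostrolaterally, Sp8 rostromedially, Emx2 caudomedially and Nr2f1 (COUP-TFI) caudolaterally, while Lhx2 separates cortex from hem. Dmrta2 and Dmrt3 are highest medially, and Dmrt factors and Pax6 restrain ventral genes in dorsal progenitors.

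The upstream sequences of Emx1, Emx2 and Nr2f2 are shown because Emx1 was the factor whose groups did not overlap, Emx2 is its close relative and Nr2f2 varied most between arrays. The 250 bases before the annotated start are given 5′ to 3′ on the strand of the gene, from RefSeq annotation of GRCm38.p6. Capitals mark the GC box GGGCGG on either strand, including overlapping matches, the element bound by proteins of the Sp family to which Sp8 belongs. The windows are chr6:85187681-85187930 (plus strand), chr19:59458440-59458689 (plus strand) and chr7:70366747-70366996 (minus strand).
Emx1: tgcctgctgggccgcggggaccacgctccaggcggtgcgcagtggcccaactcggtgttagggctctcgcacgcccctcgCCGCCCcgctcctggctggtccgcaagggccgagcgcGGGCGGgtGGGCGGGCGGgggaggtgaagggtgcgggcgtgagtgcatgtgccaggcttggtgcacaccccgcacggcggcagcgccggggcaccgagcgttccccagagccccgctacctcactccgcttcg
Emx2: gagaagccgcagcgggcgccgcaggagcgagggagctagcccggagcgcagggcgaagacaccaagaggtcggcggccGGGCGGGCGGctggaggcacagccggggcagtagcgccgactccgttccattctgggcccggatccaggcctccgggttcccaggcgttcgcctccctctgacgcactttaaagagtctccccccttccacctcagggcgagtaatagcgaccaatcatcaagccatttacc
Nr2f2: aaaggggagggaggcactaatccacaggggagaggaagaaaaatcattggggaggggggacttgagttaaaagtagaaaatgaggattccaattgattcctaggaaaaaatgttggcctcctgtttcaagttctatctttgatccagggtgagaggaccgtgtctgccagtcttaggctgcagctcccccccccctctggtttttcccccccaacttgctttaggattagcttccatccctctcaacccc
The Emx1 window held 4 GC boxes and 30 CpG dinucleotides, the Emx2 window 2 GC boxes and 24 CpGs, and the Nr2f2 window no GC box and 1 CpG. Over all 32851 windows of this length the median was 6 CpGs, and 32.7% held a GC box. All 9 factors had at least 1 window, 14 in all because some have several annotated starts, and a GC box occurred in 5 of the 14 windows, those of 5 factors. At least 1 window lay above the median number of CpGs for 8 of the 9 factors, Nr2f2 being the exception. The homeodomain core TAATTA, searched on both strands, was found in 1 of the 14 windows (Sp8) and in 4.84% of all windows. The nuclear receptor core site AGGTCA, also searched on both strands, was found in 1 (another Sp8 window) and in 14% of all. A match is a run of letters and shows no binding.

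Levels are RMA values on the log2 scale, so a difference of 1 is a doubling. The median over all probe sets was 4.40 to 4.61 per array, and pairs of arrays correlated with r = 0.937 to 0.976 over probe sets, which are no replicates of each other. Trnp1 itself had log2 levels of 5.07, 4.999, 5.24 and 5.22 in controls and 4.802, 4.85 and 4.55 in knockdown samples. All knockdown arrays lay below all controls, in the direction of the labels, where 3.07% of all genes were lower without overlap. The difference was -0.40 (SE 0.12, adjusted p = 0.825 by limma), or 75.8% of the control signal (62.1% to 92.4%). Trnp1 was at percentile 51.4 of mean level, near the array medians, where RMA can compress differences. The interval therefore does not bound the loss of Trnp1 RNA. By limma with Benjamini-Hochberg adjustment over all genes, 0 genes passed at 0.05 (0.0% of those tested, with 0.736 as the lowest adjusted p). Without adjustment, 439 genes were higher and 719 lower at a limma p under 0.05. Markers of radial glia, the stem cells in which most of these factors act, had mean log2 levels of 8.22 to 8.77 per array over the 12 listed genes. Lists of erythroid (4 measured genes) and mesenchyme markers (7) were at 7.19 to 8.53 and 4.11 to 4.26 in controls and at 7.76 to 8.91 and 4.21 to 4.75 in knockdown samples, with 0 genes called in either.

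None of the 9 factors changed by the test over all genes. In knockdown samples 5 were lower (Emx1, Lhx2, Emx2, Dmrt3 and Dmrta2) and 4 higher (Nr2f2, Sp8, Nr2f1 and Pax6), with a median log2 difference of -0.12. Over all genes 10009 of 19938 were lower and the median was -0.001, but among the 6979 genes with a mean level over 6 the median was also -0.12 and 66.4% were lower. For 8 of the 9 factors the 95% intervals all lay between -0.91 and 0.71. Among these Sp8 was dim (percentile 35.8 of mean level), where RMA compresses differences, so its interval does not bound a change in its RNA. For Nr2f2 the interval ran from -0.82 to 3.32. The groups did not overlap for 1 factor, Emx1, which was lower, where 3.07% of all genes were lower without overlap, and for 0 factors in the higher direction, where the background was 2.59%. Before adjustment, the limma p was under 0.05 for 1 factor in the lower direction (Emx1, 0.023), against 3.61% of all genes, and for 0 in the higher direction, against 2.2%. This depended on the processing, since the unadjusted limma p of Emx1 was 0.1 after a further quantile normalization, 0.198 after cyclic loess, 0.0706 with an intensity trend, 0.0654 without the dimmest 50% of genes and 0.0743 with the replicate block. It was 0.0537 without control replicate 2 and 0.0641 without knockdown replicate 2. Under some alternatives other factors were also below 0.05 by limma before adjustment. Lhx2 was at 0.0323 with the replicate block, 0.0429 with equal array medians and 0.0434 without knockdown replicate 1. The limma p of Lhx2 was 0.0742 in the main fit and rose under other settings. It was 0.123 after a further quantile normalization, 0.172 after cyclic loess and 0.121 with array weights. Without control replicate 1 it was 0.155, and without knockdown replicate 3 it was 0.252. Emx2 was at 0.0281 without control replicate 4, and Nr2f2 at 0.0397 with the replicate block.

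**Figure D1:**
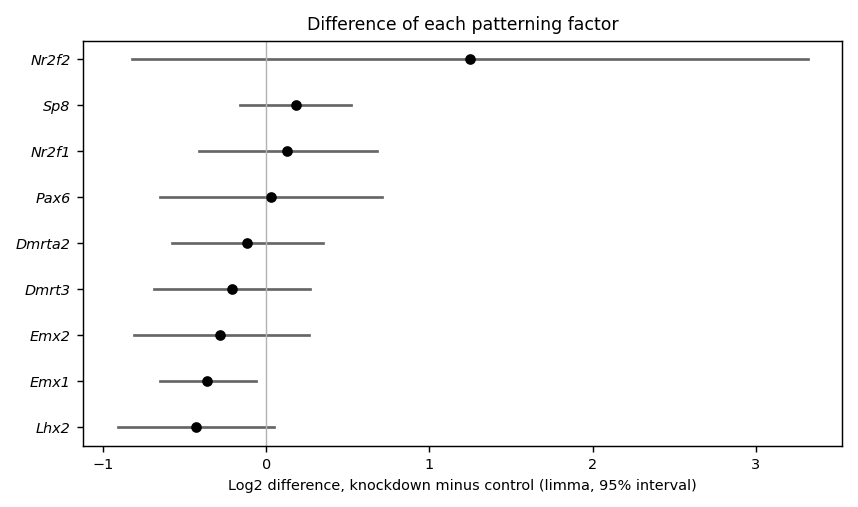
Log2 difference of each of the 9 factors, knockdown minus control (horizontal axis), with the 95% interval of limma as a line. The interval excludes 0 for Emx1 only (-0.65 to -0.06), before adjustment for multiple genes, and is widest for Nr2f2. With an intensity trend in the fit, which is not plotted, the Emx1 interval includes 0 (-0.75 to 0.04).

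Emx1 and Emx2 are homeodomain factors of cortical progenitors, and Emx1 is also kept in excitatory neurons. Emx1 (Entrez 13796) had log2 levels of 7.85, 7.91, 7.85 and 7.85 in controls and 7.68, 7.26 and 7.58 in knockdown samples. The 3 knockdown arrays all lay below the controls, and knockdown replicate 2 was the lowest. The means were 7.86 ± 0.0285 (SD, n = 4) and 7.51 ± 0.219 (SD, n = 3), which puts the knockdown level at 78.1% of the control level (95% interval 63.8% to 95.6%). The difference was -0.36 (SE 0.12), with p = 0.0286 by the exact two-sided permutation test, the smallest that the 35 splits of the arrays can give, and an adjusted p of 0.825 by limma. Control replicates 1, 3 and 4 shared the same value to 3 decimals, which occurred in 336 genes (1.69%) and in 0.373% of those with a mean level over 6. The spread of Emx1 over the controls (range 0.06) was accordingly at percentile 0.498 of genes within 0.5 log2 units of its mean level. The SE, interval and limma p of Emx1 rest in part on this small spread. Its residual SD was 0.14, against a median of 0.313 among those genes. With an intensity trend in the fit the interval was -0.75 to 0.04, and after cyclic loess it was -0.61 to 0.15.

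Markers of cortical neurons, in which Emx1 is kept, were read on the same arrays. The mean of the 11 measured genes was 8.69 to 8.98 in controls and 8.42, 8.51 and 8.95 in knockdown samples. It was lowest on knockdown replicate 1 (Emx1 at 7.68) and within the control range on knockdown replicate 3 (Emx1 at 7.58). Of the 11 genes, 7 were lower and 4 higher after knockdown, with a median of -0.39 beside -0.12 over genes with a mean level over 6. None was called (0 genes). For 4 the groups did not overlap in the lower direction, where 3.07% of all genes did so, and for 1 in the higher direction, against 2.59%. Neurod6, a bHLH factor of excitatory neurons, was at 10.90 to 11.34 in controls and 10.36 to 10.49 in knockdown samples (-0.71, SE 0.13). Also lower were Nrp1 (-1.37, SE 0.31), Neurod2 (-0.59, SE 0.16) and Dcx (-0.52, SE 0.19). So were Tubb3 (-0.50, SE 0.28), Tbr1 (-0.39, SE 0.24) and Bcl11b (-0.07, SE 0.20). The 4 higher genes were Mapt (0.71, SE 0.51), Stmn2 (0.33, SE 0.37), Sox5 (0.29, SE 0.12) and Map2 (0.11, SE 0.24). The part of neuron number in the Emx1 difference was not tested.

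Emx2 (Entrez 13797) had log2 levels of 6.83, 6.96, 7.17 and 6.25 in controls and 6.52, 6.76 and 6.30 in knockdown samples. The groups overlapped because control replicate 4 was the lowest of all arrays. The difference was -0.28 (SE 0.23, interval -0.81 to 0.26, adjusted p = 0.844 by limma), and leaving out control replicate 4 gave -0.46, whereas leaving out replicate 3 of either group gave -0.16. The log2 ratio of Emx1 to Emx2 within an array, which a shift of the whole array does not touch, averaged 1.06 ± 0.38 (SD, n = 4) in the control group and 0.98 ± 0.42 (SD, n = 3) after knockdown. Its difference of -0.08 did not pass the exact permutation test (p = 0.857, and 0.857 adjusted over the 3 related pairs compared). The sign of that ratio difference turned without control replicate 4 (0.098) or knockdown replicate 2 (0.157), and these data did not separate the 2 genes.

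Lhx2, the LIM homeodomain factor that selects cortical over hem fate, was among the brightest genes (percentile 98.9 of mean level). Lhx2 (Entrez 16870) had log2 levels of 10.90, 10.35, 10.41 and 10.33 in controls and 10.34, 10.16 and 9.71 in knockdown samples. Knockdown replicate 3 was the lowest array and control replicate 1 the highest, and the groups overlapped only because knockdown replicate 1 lay just above control replicate 4. The difference was -0.43 (SE 0.20, interval -0.91 to 0.05), or 74.4% of the control signal (53.4% to 104%), with p = 0.0571 by the exact permutation test and an adjusted p of 0.825 by limma. Leaving out 1 array at a time gave -0.56 (without knockdown replicate 1) to -0.25 (without knockdown replicate 3), negative in all cases. Beside this, genes with a mean level over 6 had a median difference of -0.12. On knockdown replicate 3 their median deviation from the control mean was -0.24.

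**Figure D2:**
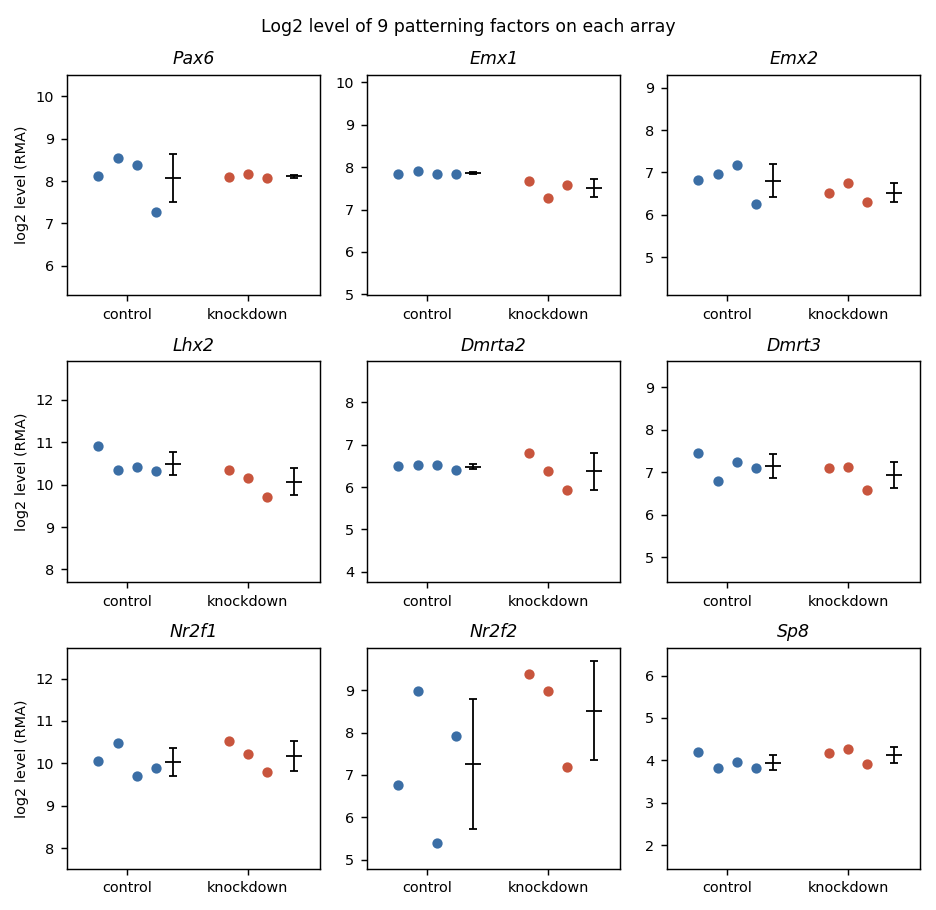
Log2 level (RMA, vertical axis, the same span in each panel) of the 9 factors in 4 control (blue) and 3 knockdown (red) arrays, with the mean and SD of each group in black. Emx1 is the only panel without overlap, and Nr2f2 spreads over 5.40 to 9.37.

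Pax6, the paired-box factor that drives cortical neurogenesis, had nearly the same mean in both groups. Pax6 (Entrez 18508) had log2 levels of 8.12, 8.55, 8.38 and 7.27 in controls and 8.09, 8.16 and 8.08 in knockdown samples. The knockdown arrays lay inside the control range, and control replicate 4 was by far the lowest array. The means were 8.08 ± 0.566 (SD, n = 4) and 8.11 ± 0.046 (SD, n = 3), a difference of 0.03 (SE 0.29, interval -0.65 to 0.71, adjusted p = 0.988 by limma). The direction rested on control replicate 4, without which the difference was -0.24 (interval -0.58 to 0.10), and it also turned with equal array medians (-0.078). At 95% confidence a knockdown signal below 63.7% or above 163% of the control lay outside the interval.

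Control replicate 4 also had the highest mean log2 level of the choroid plexus and hem list (6 measured genes, 7.17 against 4.00 to 4.89 in the other controls) and of the microglia list (8 genes, 8.62 against 5.82 to 7.11). Knockdown arrays had 4.13 to 5.88 and 6.74 to 7.92. Among controls, replicate 4 was also highest for the endothelial list (6.63 against 4.10 to 4.57) and the erythroid list (8.53 against 7.19 to 7.39). In the choroid plexus list Ttr, a secreted carrier made by choroid epithelium, had a log2 level of 12.55 in control replicate 4, 9.86 in control replicate 3, 11.98 in knockdown replicate 2 and 4.00 to 4.34 in the other arrays. Wnt3a, a hem signal of the same list, was at 3.45 in control replicate 4 and 3.72 to 3.92 in the other controls. Emx2 and Sp8 as well as Pax6 had their lowest value in control replicate 4, and 8 of the 9 factors lay below their control mean there. On the other arrays with high Ttr, control replicate 3 and knockdown replicate 2, Emx2 was at 7.17 and 6.76 and Pax6 at 8.38 and 8.16. The part of any of these cell types in the Pax6 and Emx2 values was not tested. In bulk samples, fewer cells of a type and less RNA per cell cannot be told apart.

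Genes known to depend on Pax6 in the embryonic cortex did not pass either, with 0 of 8 called in each direction, 5 higher and 3 lower, and a median log2 difference of 0.06 beside -0.001 over all genes and -0.12 over genes with a mean level over 6. The proneural factor Neurog2 and the intermediate progenitor factor Eomes differed by 0.02 (SE 0.31) and -0.07 (SE 0.22). Both were measured at high levels, with control means of 10.00 and 10.31. The Wnt modulator Sfrp2 had log2 levels of 7.50 to 8.56 in controls and 8.26 to 8.86 in knockdown samples, a difference of 0.47 (SE 0.26). Neurod1 was the exception in size, at 8.74 to 8.87 in controls and 6.98 to 7.65 in knockdown samples, a difference of -1.45 (SE 0.17, adjusted p = 0.736 by limma) while Pax6 itself differed by 0.03.

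Dmrta2 and Dmrt3 are DM-domain factors of the medial and dorsal cortex. Dmrta2 (Entrez 242620) had log2 levels of 6.49, 6.52, 6.52 and 6.402 in controls and 6.80, 6.38 and 5.93 in knockdown samples. The controls lay within 0.12 of each other, whereas the knockdown arrays spread to both sides of them, replicate 1 above and replicates 2 and 3 below. The difference was -0.12 (SE 0.20, interval -0.58 to 0.35), and it was 0.11 without knockdown replicate 3. Dmrt3 (Entrez 240590) had log2 levels of 7.45, 6.79, 7.25 and 7.10 in controls and 7.11, 7.12 and 6.58 in knockdown samples. Only knockdown replicate 3 fell outside the control range, and the difference of -0.21 (SE 0.20, interval -0.69 to 0.27) became -0.031 without it. The log2 ratio of Dmrta2 to Dmrt3 averaged -0.66 ± 0.29 (SD, n = 4) in the control group and -0.57 ± 0.23 (SD, n = 3) after knockdown, a difference of 0.09 (p = 0.629 by the exact permutation test, 0.857 adjusted over 3 pairs), whose sign turned without control replicate 1 (-0.005) or knockdown replicate 1 (-0.039).

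On knockdown replicate 3 all 9 factors lay at or below their control mean, and 4 of them (Emx1, Lhx2, Dmrta2 and Dmrt3) below every control. Pax6, Sp8 and Nr2f2 were within 0.08 of their control means there. The median deviation of the 9 was -0.29. That of all genes on this array was -0.005, but for genes with a mean level over 6 it was -0.24, with 69.9% of them below their control mean. Knockdown replicates 1 and 2 had 4 and 5 factors below the control mean, with medians of 0.01 and -0.02, where genes with a mean level over 6 had -0.12 and 0.03. Lhx2, Dmrta2 and Dmrt3 had their lowest value on this array. The radial glia list was also at its lowest there, 8.22, close to control replicate 4 at 8.23, and the Cajal-Retzius list at its highest, 5.07 against 4.47 to 4.69 on the other arrays. In the latter list Reln, the secreted protein of Cajal-Retzius neurons, had a log2 level of 7.68 in knockdown replicate 3 and 4.72 to 5.16 elsewhere. Without Reln the mean of the other 6 genes was 4.63 on this array and 4.37 to 4.63 on the others. Nhlh2, another marker of these neurons, was at 4.34 on this array, below the controls at 4.53 to 5.11. The part of Reln-expressing cells in the low values was not tested.

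Nr2f1 and Nr2f2 are orphan nuclear receptors of caudal and lateral cortex, and Nr2f2 (COUP-TFII) is also made by interneurons, hem and venous endothelium. Nr2f1 (Entrez 13865) had log2 levels of 10.06, 10.49, 9.71 and 9.90 in controls and 10.52, 10.21 and 9.79 in knockdown samples. All but knockdown replicate 1 lay within the control range, with a difference of 0.13 (SE 0.23, interval -0.41 to 0.68), which was -0.038 without knockdown replicate 1. Nr2f2 (Entrez 11819) had log2 levels of 6.77, 8.98, 5.40 and 7.91 in controls and 9.37, 8.99 and 7.19 in knockdown samples. Controls alone spanned 11.9-fold, and control replicate 2 was as high as knockdown replicate 2. The difference was 1.25 (SE 0.88, interval -0.82 to 3.32, adjusted p = 0.830 by limma), or 238% of the control signal (56.6% to 998%). It ranged from 0.63 without control replicate 3 to 1.91 without knockdown replicate 3. The residual SD of Nr2f2 was 1.40 against a median of 0.313 among 1953 genes of like level, at percentile 99.6, so Nr2f2 was one of the most variable genes for its level while Nr2f1, at 0.344, lay at percentile 80.3.

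The 2 receptors ran in a similar order over the arrays. Control replicate 2 and knockdown replicates 1 and 2 were the 3 highest for both, and control replicate 3 was the lowest for both. Over the 7 arrays Pearson's r was 0.856 (exact permutation p = 0.0167) and Spearman's rho 0.857 (exact permutation p = 0.0238). Adjusted over the 3 related pairs these were 0.0501 and 0.0714, so the relation did not pass, and without the 2 arrays farthest from the median of Nr2f1 r was 0.763 over 5 arrays. For Emx1 with Emx2 r was 0.224 (exact permutation p = 0.658) and rho 0.445 (0.329), and for Dmrta2 with Dmrt3 r was 0.591 (exact permutation p = 0.151) and rho 0.214 (0.662). Adjusted for the 3 pairs, the p of r was 0.658 and 0.226 and that of rho 0.494 and 0.662. Without the 2 farthest arrays r was 0.406 and -0.047. The log2 ratio of Nr2f1 to Nr2f2 averaged 2.77 ± 1.27 (SD, n = 4) in the control group and 1.66 ± 0.82 (SD, n = 3) after knockdown, a difference of -1.11 that did not pass (p = 0.286 by the exact permutation test, 0.857 adjusted over 3 pairs).

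Endothelial markers also varied widely between arrays. The mean log2 level of the 7 listed genes was 4.47, 4.57, 4.10 and 6.63 in controls and 7.06, 5.97 and 5.0 in knockdown samples, and all 7 were higher in knockdown samples, 0 of them called. Knockdown replicate 1 had the highest value of both Nr2f2 and this list, and control replicate 3 the lowest of both. In control replicate 2, however, Nr2f2 was at 8.98 with the list at 4.57, and in control replicate 4 Nr2f2 was lower (7.91) with the list higher (6.63). Among defining endothelial genes Cdh5, the junctional cadherin of vessels, was at 5.27 in control replicate 2 and 8.54 in knockdown replicate 1. The ventral and interneuron list was at 5.69 on knockdown replicate 2 (Nr2f2 at 8.99) but at 4.28 on control replicate 2 (Nr2f2 at 8.98). The choroid plexus and hem list was at 5.88 and 4.05 on these arrays. On knockdown replicate 1, where Nr2f2 was at 9.37, the 2 lists were at 4.51 and 4.13. The part of endothelial cells, interneurons or hem cells in the Nr2f2 values was not tested.

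**Figure D3:**
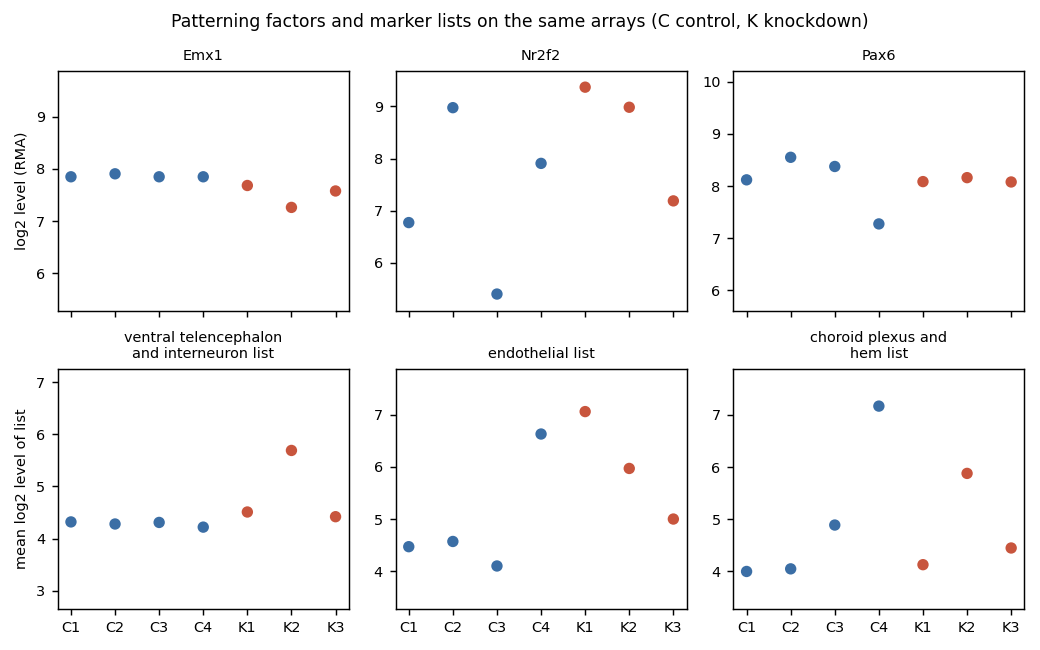
Log2 level (RMA) of Emx1, Nr2f2 and Pax6 (top) and mean log2 level of 3 marker lists (bottom) on each array, controls C1 to C4 in blue and knockdown K1 to K3 in red, with the same vertical span in each panel. Emx1 is lowest on K2, where the ventral and interneuron list is at 5.69, and Pax6 is lowest on C4, where the choroid plexus and hem list is at 7.17.

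Sp8, a zinc finger factor of the rostromedial cortex, was dim, at percentile 35.8 of mean level, where RMA compresses differences. Sp8 (Entrez 320145) had log2 levels of 4.20, 3.82, 3.95 and 3.81 in controls and 4.17, 4.28 and 3.92 in knockdown samples. The groups overlapped, with a difference of 0.18 (SE 0.14, interval -0.16 to 0.52, adjusted p = 0.842 by limma).

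As a single number per array, the mean of the rostral factors Pax6 and Sp8 minus the mean of the caudal factors Emx2 and Nr2f1 was set against the mean of the controls. It was 0.12, -0.13, 0.13 and -0.13 in controls and 0.02, 0.15 and 0.36 in knockdown samples. Knockdown replicates 2 and 3 lay above the control range and replicate 1 within it. The value of 0.36 came from Emx2 and Nr2f1, at -0.50 and -0.25 from their control means, while Pax6 and Sp8 were at -0.00 and -0.02. On that array genes with a mean level over 6, as Emx2, Nr2f1 and Pax6 are, had a median deviation of -0.24. Over all genes it was -0.005, and Sp8 is a dim gene. The part of this shift of bright genes in the value was not tested. On knockdown replicate 2 the dim Sp8 was at 0.33, with Pax6 at 0.08, Emx2 at -0.05 and Nr2f1 at 0.17. This combination is a description and has no test.

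Ventral telencephalon factors, which dorsal patterning factors normally keep low in cortex, were higher in knockdown samples for 16 of 17 measured genes, with a median log2 difference of 0.32 beside -0.001 over all genes. None was called (0 of 17 in each direction), and for 4 of them the groups did not overlap, all in the higher direction, where the background was 2.59%. The mean log2 level of the list was 4.22 to 4.32 in controls and 4.51, 5.69 and 4.42 in knockdown replicates 1, 2 and 3. Dlx5, a homeodomain factor of interneurons, had log2 levels of 4.60 to 4.76 in controls and 6.31, 8.73 and 5.40 in knockdown samples. Dlx6, its neighbour and relative, was at 3.77 to 4.03 in controls and 4.79, 6.10 and 4.22 in knockdown samples, and Gad2, an enzyme of GABA synthesis, at 3.68 to 4.12 and 4.43, 6.03 and 4.38. These were the genes of smallest p in the list, and other interneuron and ventral genes differed little. Gad1 differed by 0.08 (SE 0.17), Lhx6 by 0.12 (SE 0.24), Nkx2-1 by 0.11 (SE 0.12) and Gsx1 by 0.03 (SE 0.18). The lower gene was Olig1 (-0.18, SE 0.15), while Dlx1 (1.61, SE 0.89) and Dlx2 (1.34, SE 0.72) were also higher. The array with the highest list level, knockdown replicate 2, was the array with the lowest Emx1 (7.26). Without it, Emx1 in knockdown replicates 1 and 3 still lay below all controls, with a difference of -0.23 (interval -0.49 to 0.02), though Dlx5 was above all controls on those arrays too. On knockdown replicate 2 Lhx2 was at 10.16 and Emx2 at 6.76, below and within their control ranges, and Pax6 at 8.16. The part of ventrally derived cells in the Emx1 difference was not tested.

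**Figure D4:**
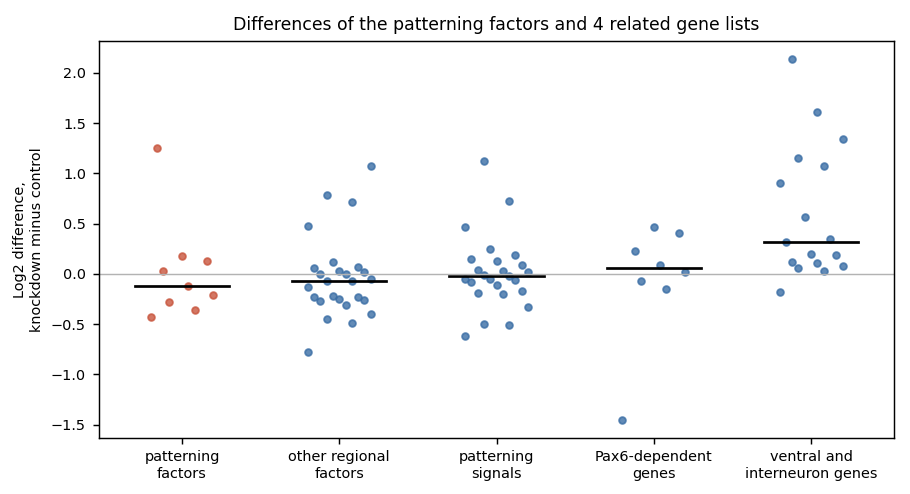
Log2 difference, knockdown minus control (vertical axis), of the 9 factors (red) and of the genes of 4 related lists (blue), 1 point per gene, with the list median as a black line. The medians are -0.12, -0.07, -0.02, 0.06 and 0.32 from left to right, and no gene in the plot passed the test.

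Other regional factors of the dorsal telencephalon and their cofactors did not pass (0 of 26 called in each direction, 17 lower and 9 higher, median -0.07). Gli3, the zinc finger factor that maintains dorsal fate against hedgehog signalling, differed by 0.02 (SE 0.29). Lmo3 and Ldb2, a LIM-only protein and a LIM-domain binding protein of the families through which Lhx2 forms complexes, had among the smallest p. Lmo3 was at 6.29 to 7.03 in controls and 7.14 to 7.62 in knockdown samples (0.78, SE 0.20, adjusted p = 0.825 by limma). Ldb2 was at 5.80 to 7.09 in controls and 6.78 to 7.79 in knockdown samples (1.07, SE 0.35), with overlapping groups. The other listed genes of these families were lower, Lmo4 by -0.78 (SE 0.41), Lmo1 by -0.23 (SE 0.30) and Ldb1 by -0.13 (SE 0.12). Bcl11a, a zinc finger factor of cortical neurons and area identity, was at 10.38 to 10.75 in controls and 9.80 to 10.38 in knockdown samples (-0.49, SE 0.16, adjusted p = 0.825 by limma).

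Signals of the patterning centres and their feedback targets did not pass as genes either (0 of 25 called in each direction, 14 lower and 11 higher, median -0.02). Fgf8, the rostral patterning signal, was dim and differed by -0.05 (SE 0.12). The Wnt ligand Wnt7b differed by -0.62 (SE 0.26), the FGF receptor Fgfr3 by 0.73 (SE 0.35) and the FGF-responsive ETS factor Etv5 by -0.51 (SE 0.26). Knockdown values of Fgfr3 were 7.17 to 7.75, against 6.26 to 7.71 in controls, so the groups overlapped. Etv5 was at 8.05 to 8.51 in controls and 7.50, 8.37 and 7.39 in knockdown samples, with replicate 2 inside the control range.

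Other genes followed the array pattern of the factors closely, as a search over many genes with few arrays allows. Among 6978 genes with a mean level of at least 6, the 2 most like each factor by Pearson's r over the 7 arrays reached r = 0.941 to 0.991 for the 8 brighter factors, as a description without a test. Emx1 was most like Shisa2 (r = 0.963, rho = 0.889) and Mpi (r = 0.941, rho = 0.889). Shisa2, whose product retains receptors in the endoplasmic reticulum, was at 8.04 to 8.22 in controls and 7.54 to 7.85 in knockdown samples, lowest on knockdown replicate 2 like Emx1. Emx2 was most like Skp1 and Nme1 (both r = 0.987), Lhx2 like Eci2 (r = 0.991) and Phf23 (r = 0.990), and Pax6 like Nr2c2 (r = 0.977) and Cep95 (r = 0.974). Nr2f1 was most like Slc1a3 (r = 0.979), the glutamate transporter of radial glia, and Cramp1l (r = 0.970), and Nr2f2 like Ahcyl1 (r = 0.960) and Ammecr1l (r = 0.959). Dmrta2 was most like St8sia4 (r = 0.985) and Cep19 (r = 0.979), Dmrt3 like Ddx19b (r = 0.964) and H13 (r = 0.953), and Sp8 like Saal1 (r = 0.932) and Dmxl1 (r = 0.929). No factor appeared among the 2 nearest genes of another.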

How the data were processed

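Total RNA of 7 samples of sorted cortical cells was labelled after whole-transcriptome amplification, per the labels' protocols, which can add spread between samples. Per the submitters' processing notes, the authors used RMA and Affymetrix Expression Console 1.2, and their deposited levels are log2 values. This method corrects background, normalizes by quantiles and summarises probes, but the deposited arrays still differed in brightness. Their medians ran from 4.40 to 4.61. Genes with a mean level over 6 had a median deviation of -0.24 from their control means on knockdown replicate 3. No genome build is given in the sources used here. Of 35556 probe sets, 21789 had 1 gene symbol in the platform annotation, 1621 several and 12146 none, and 21698 were matched by Entrez identifier to RefSeq names (GRCm38.p6). Each gene was read from its single-symbol probe set of highest mean.

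Groups were compared by limma 3.58.1 in R 4.3.3 (lmFit, eBayes without trend, no covariates, 5 residual and 2.36 prior degrees of freedom), with Benjamini-Hochberg adjustment over 19938 genes and a threshold of 0.05. SE and 95% intervals are limma's. Exact permutation tests were two-sided over the 35 splits of the arrays, and those of correlations over all orders of the arrays. The fit was tested on simulated data. Precision is limited by the number of arrays, which have no read depth. The labels call the samples biological replicates without saying how many animals each holds, so p-values measure the spread between these samples. Replicate numbers 1 to 3 occur in both groups without a stated pairing, so no block was used. The factors and lists were chosen with earlier results of these data known, and the correlations of related pairs were computed after the values were seen. Named genes were the 9 factors, Trnp1, up to 3 genes of smallest p in each list (for cell type lists also up to 3 of highest level) and the 2 genes most like each factor. Neurog2, Eomes, Gli3 and Fgf8 were added for their known roles after their values were seen. The alternatives were scaling, variance prior, array weights, filters on dim genes, the mean over probe sets, a replicate block, each array left out, and a looser threshold of 0.1.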

Additional observations from a re-analysis of the deposited data

Results flagged for a closer look

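Among 13 control groups of 4 arrays, those of the 9 factors, Trnp1 and the 3 ratios of related factors, 2 had 1 array standing apart from the others, where chance gives about 1 in 20. For Emx1 the highest control, replicate 2, was at 7.907 while the other 3 shared 7.85, so the gap was the whole range, though only 0.06 log2 units. With 3 equal values the gap is the whole range for any differing value of the remaining array. The rate of 1 in 20 therefore does not apply to Emx1. For Lhx2 the highest control, replicate 1, was at 10.902 with the others at 10.33 to 10.41. Without that array the Lhx2 difference was -0.29 (interval -0.72 to 0.14).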

How the results depend on the processing

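No factor and no other gene passed at 0.05 under any alternative run, nor at an adjusted p under 0.1, and leaving out each array in turn also gave 0 genes and 0 factors. With the replicate block 0 genes and 0 factors passed. Same-numbered arrays deviated together only weakly (correlations 0.028, -0.051 and 0.072 for replicates 1, 2 and 3), so the numbers were not taken as a pairing. Of 130 differences of the 9 factors and Trnp1 under settings that can move a difference, 123 kept their direction and 7 did not. Pax6 was -0.078 with equal array medians, -0.13 with array weights, -0.24 with the replicate block, -0.24 without control replicate 4 and -0.27 with control replicate 4 and knockdown replicate 2 both left out, an alternative chosen after seeing the data. Control replicate 4 has no same-numbered knockdown array, so the replicate block gives the same difference as leaving it out. These 2 settings are therefore not separate checks of direction. Dmrta2 was 0.11 without knockdown replicate 3, and Nr2f1 -0.038 without knockdown replicate 1. With single arrays left out Pax6 ranged from -0.24 to 0.19, Dmrta2 from -0.33 to 0.11 and Nr2f1 from -0.038 to 0.32. The ratio of Emx1 to Emx2 turned to 0.098 and 0.157 without control replicate 4 and knockdown replicate 2, and to 0.336 without both. With single arrays left out it ranged from -0.228 to 0.157, Dmrta2 to Dmrt3 from -0.039 to 0.227 (turned to -0.005 and -0.039 without replicate 1 of control and of knockdown) and Nr2f1 to Nr2f2 from -1.59 to -0.604. The cause was not tested. Emx1 was -0.23 after cyclic loess normalization and Emx2 -0.57 with both arrays left out.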
